A study of Homo sapiens with 12 samples.

Results

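The RNA levels of 8 genes that encode surface antigens of B cells were followed in 3 lymphoma cell lines under 4 treatments. The genes are MS4A1, CD22, CD37, CD38, CD52, CD72, CD24 and CR2, and they are 8 of the 18239 genes with a probe set of their own on the array. The rule that picks their probe sets goes by symbol, through the array annotation and current gene identifiers. The genes have 17 such probe sets in all, and each gene is represented by the probe set with the highest mean over the 12 arrays, with its other probe sets used as a check. All 8 passed the filter on low values and were among the 13120 genes tested.

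Antibodies against B cell lymphoma bind a protein on the cell surface and kill through complement, through immune cells that read the antibody, or through a toxin or T cell that the antibody brings along. The proteins studied here differ in what they do on a B cell. CD22 and CD72 are inhibitory receptors that damp signalling from the B cell receptor. CD20, the product of MS4A1, and CD37 each cross the membrane several times. CD24 and CD52 are small glycoproteins held by a lipid (GPI) anchor, CD38 is an enzyme that consumes NAD outside the cell, and CR2 (CD21) is a receptor for complement fragments. An array reads RNA, so nothing here measures protein at the surface.

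Each of the 12 arrays held RNA from 1 line under 1 treatment, so a group is 3 lines with 1 array each. Replicate 1 is OCI-LY3, replicate 2 is OCI-HBL1 and replicate 3 is OCI-LY10, all established human lines of ABC-DLBCL, the activated B cell-like form of diffuse large-cell lymphoma, in which NF-kB signalling is chronically on. Combo cells received both agents, with 18 h of CPI203 and 6 h of IRAKi in the design and a time of 24 h in their labels. CPI203 cells received CPI203 at 500 nM, a compound that keeps BET bromodomain proteins from binding acetylated chromatin, with a labelled time of 24 h and 18 h of exposure in the design. IRAKi cells received an inhibitor of the IRAK kinases, which signal below MYD88 and Toll-like receptors, at 50 µM for 6 h, and its chemical identity is not stated. Control cells carry a labelled time of 24 h and no further description of what they received. The treatment and the labelled time therefore differ together between IRAKi and Control cells, and their parts cannot be told apart.

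Values are log2 array levels, so a difference of 1 is a 2-fold difference, and the level of a gene was not set against that of another gene. A change is called at an adjusted p below 0.05 from limma, fitted on all genes with treatment and cell line as terms. The replicates are different lines, so the p-values rest on how treatment effects varied between these 3 lines and hold no repeat within a line. For each gene this spread is pooled over the 4 treatments and drawn towards that of all genes. A gene therefore has the same standard error (SE) in each of the 5 comparisons between 2 groups, whatever the spread of the line values in that comparison. In a bulk sample, fewer cells with an RNA and less RNA per cell cannot be told apart. Array medians lay between 4.64 and 4.73, and correlations between arrays between 0.923 and 0.991. Of 7 other B cell markers measured, 6 were above the filter level of 4.20 on every array, and the mean of the list was 8.62 in Combo, 8.63 in CPI203, 8.77 in IRAKi and 8.92 in Control cells. Over the arrays this list averaged 8.35 to 9.30, and a list of 5 plasma cell genes averaged 6.34 to 8.70, so the 2 lists overlapped. PRDM1, XBP1 and JCHAIN of the plasma cell list were above the filter level on every array, MZB1 on 10 and SDC1 on 1. The remaining lists averaged lower, at 3.98 to 4.68 for T cells, 4.26 to 4.69 for NK cells and 3.48 to 4.02 for myeloid cells. Stromal genes averaged 3.87 to 4.75 and epithelial genes 3.96 to 4.71. Of the 6 T cell genes CD3D and CD8A were never above the filter level and CD247 was above it on every array (4.29 to 7.17), and of the 6 myeloid genes 4 were never above it. GNLY was above it on every array, and COL3A1, EPCAM and KRT8 were above it on 4 arrays each, with highest levels of 6.65, 6.92 and 6.82. The part of such signals in the results below was not tested. The nonspecific control probes read 4.00 on the IRAKi array of OCI-LY10, against 3.64 to 3.79 on the others, and results that change without that array are given with and without it.

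Promoter windows of 300 bases, 250 before and 50 after an annotated start, were taken from RefSeq (GRCh38.p14) for 6 of the 8 genes. No such window was found for MS4A1 and CD37 in the promoter set used. The windows of CD72, CD24 and CD52 are shown because their RNA was called in Combo against Control cells, as was that of MS4A1. Each reads 5′ to 3′ on the gene's own strand, and capitals mark the ETS core GGAAG, its longer PU.1-like form GAGGAAG and the CCAAT box, or their reverse complements.
CD72, chr9:35618364-35618663, minus strand: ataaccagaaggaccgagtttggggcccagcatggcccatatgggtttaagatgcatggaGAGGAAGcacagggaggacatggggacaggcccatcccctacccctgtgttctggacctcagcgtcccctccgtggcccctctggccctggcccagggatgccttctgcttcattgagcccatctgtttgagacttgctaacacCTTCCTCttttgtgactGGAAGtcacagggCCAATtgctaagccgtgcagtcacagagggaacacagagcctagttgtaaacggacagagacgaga
CD24, chr6:106973990-106974289, minus strand: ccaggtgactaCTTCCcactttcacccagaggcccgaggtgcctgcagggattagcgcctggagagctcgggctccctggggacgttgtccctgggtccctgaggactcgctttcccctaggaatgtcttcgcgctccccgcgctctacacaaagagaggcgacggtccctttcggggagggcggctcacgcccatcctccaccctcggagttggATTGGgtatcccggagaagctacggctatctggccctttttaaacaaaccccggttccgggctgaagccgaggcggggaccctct
CD52, chr1:26317708-26318007, plus strand: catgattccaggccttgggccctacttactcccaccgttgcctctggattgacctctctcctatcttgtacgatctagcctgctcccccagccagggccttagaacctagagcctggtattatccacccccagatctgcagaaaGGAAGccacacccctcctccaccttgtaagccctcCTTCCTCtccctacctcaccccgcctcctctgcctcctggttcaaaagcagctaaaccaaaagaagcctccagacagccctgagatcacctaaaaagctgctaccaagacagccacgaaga
ETS factors such as PU.1 and SPIB bind GGAAG cores and regulate many B cell genes. The CD72 window held 3 GGAAG cores, 2 of them inside GAGGAAG, and 1 CCAAT box. The CD52 window held 2 GGAAG cores, 1 of them inside GAGGAAG. CD24 has 3 listed starts, and the window shown, which had the most matches of the 3, held 1 GGAAG core and 1 CCAAT box. Its window from 106975416 held 1 GGAAG core and no CCAAT box, and that from 106975578 held none of these motifs. GGAAG occurred in 71.86%, GAGGAAG in 13.6% and CCAAT in 34.61% of all 35116 windows, on either strand. The octamer ATGCAAAT, the NF-kB sites GGGACTTTC and GGGAATTTC and the TATAAA box were found in none of the 8 windows of these genes and in 1.774%, 0.3873%, 0.3161% and 11.53% of all windows. The E-box CACGTG was in the CR2 window and in 7.256% of all windows, and the interferon element GAAANNGAA in the CD38 window and in 8.107% of all windows. The 3 CD24 windows held 21, 36 and 25 CpG pairs, against 6 in the CD72 window, 4 in the CD52 window and a median of 14 over all windows. A match is a description of these letters and was not tested as a binding site.

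CD72 and MS4A1 fell in CPI203 cells, CD24 fell in IRAKi cells, and CD72, MS4A1 and CD24 fell while CD52 rose in Combo cells. The largest change was that of CD72, about 5-fold with CPI203, both alone and in Combo cells. CD22, CD37, CD38 and CR2 passed no test in any of the 5 comparisons or in the interaction. Against Control cells, 4 of the 8 genes were called in Combo cells (1 rose and 3 fell), where 15.4% of all genes rose and 16.7% fell. In CPI203 cells 2 fell and 0 rose, where 6.92% of all genes rose and 6.21% fell. In IRAKi cells 1 fell and 0 rose, where 0.114% of all genes rose and 0.0534% fell. The plot of every array's level shows that the lines of CD22, CD24, CD38 and CD52 kept their order under all 4 treatments.

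**Figure D1:**
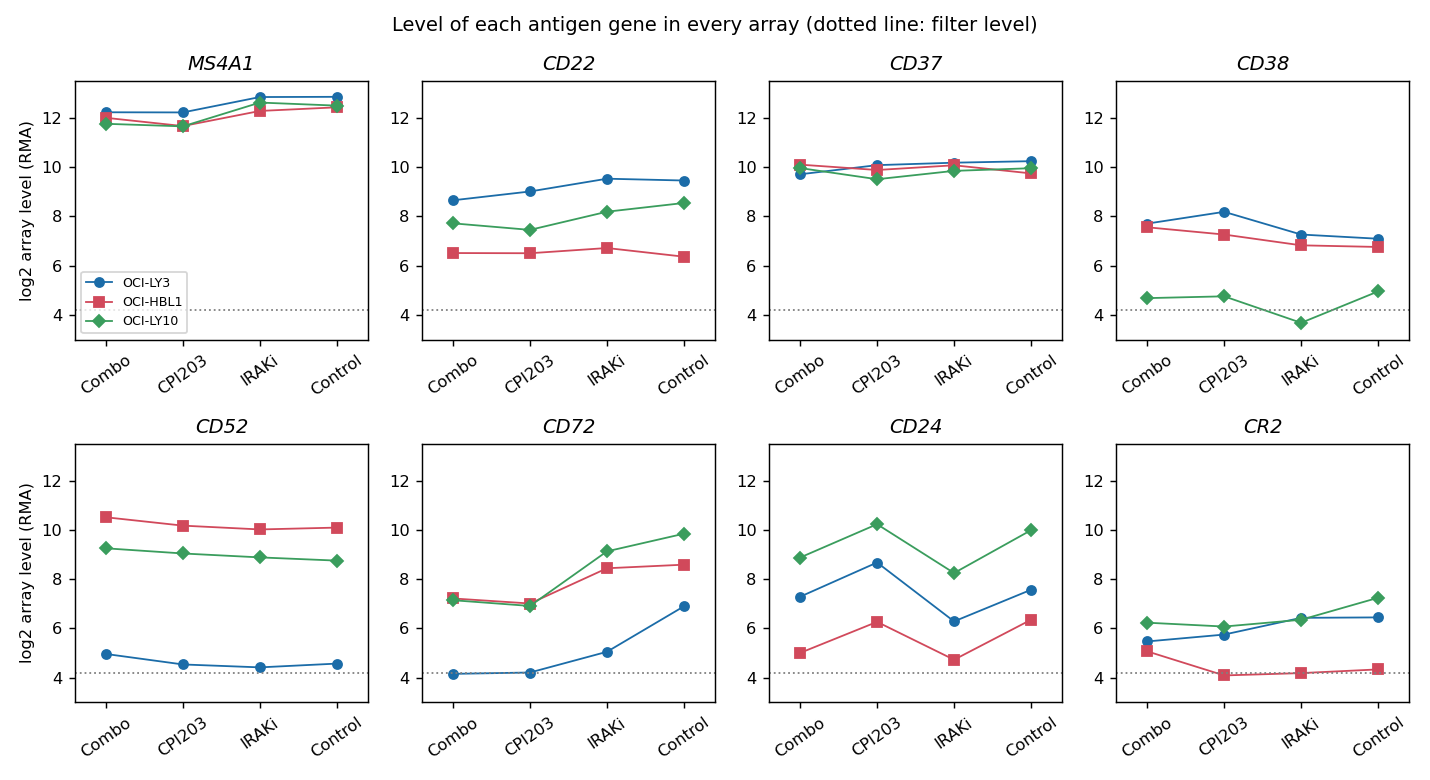
Log2 array level (RMA) of each antigen gene, 1 panel a gene, in Combo, CPI203, IRAKi and Control cells, with 1 point an array and lines joining the arrays of a cell line; the dotted line is the filter level of 4.20. CD72 and MS4A1 are low in Combo and CPI203 cells, and CD24 is low in Combo and IRAKi cells of each line.

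CD72 is a C-type lectin-like receptor that carries inhibitory (ITIM) motifs and recruits the phosphatase SHP-1 to the B cell receptor. In Combo cells its log2 level was 4.16 (OCI-LY3), 7.22 (OCI-HBL1) and 7.15 (OCI-LY10). In CPI203 cells it was 4.21, 7.01 and 6.91 in the same lines, in IRAKi cells 5.05, 8.44 and 9.13, and in Control cells 6.90, 8.59 and 9.85. Within each line both CPI203-containing arrays were the lowest and Control the highest, while the groups overlapped because OCI-LY3 lay far below the other lines. CD72 changed by -2.27 ± 0.32 (SE, n = 3 lines, limma adjusted p = 0.00075) in Combo against Control cells, a level 4.83-fold lower. In CPI203 against Control cells it changed by -2.40 ± 0.32 (SE, limma adjusted p = 0.0027), 5.28-fold lower, and ranked 13 by size among the genes tested. The OCI-LY3 array of Combo cells was below the filter level and that of CPI203 cells just above it, so these levels are close to background and the difference in this line may be larger than the array shows. The second probe set of CD72 was below the filter level, and averaging both sets gave -1.14 for Combo and -1.15 for CPI203, both still called.

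In IRAKi against Control cells CD72 differed by -0.90 ± 0.32 (SE, limma adjusted p = 0.23), and the line values were -1.85 (OCI-LY3), -0.15 (OCI-HBL1) and -0.72 (OCI-LY10). Combo was lower than IRAKi, with a change of -1.37 ± 0.32 (SE, limma adjusted p = 0.017). Combo differed from CPI203 by 0.13 ± 0.32, with a 95% interval of -0.58 to 0.84 and an adjusted p of 0.88 in the limma fit. The interaction, Combo minus CPI203 minus IRAKi plus Control, was 1.03 ± 0.45 (SE, limma adjusted p = 0.6) and positive in all 3 lines. The call against IRAKi was lost without OCI-LY3 (limma adjusted p = 0.057), without OCI-LY10 (0.15) and without the OCI-LY10 IRAKi array (0.073).

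CD22 is a sialic acid-binding lectin (Siglec) with inhibitory motifs, and it is the target of antibody-drug conjugates. Its levels for the lines OCI-LY3, OCI-HBL1 and OCI-LY10 were 8.66, 6.52 and 7.72 in Combo cells, 9.02, 6.51 and 7.46 in CPI203 cells, 9.53, 6.72 and 8.19 in IRAKi cells and 9.46, 6.37 and 8.55 in Control cells. OCI-LY3 was highest and OCI-HBL1 lowest under each treatment, and the ranges of the lines did not overlap. The difference from Control was -0.49 ± 0.22 (SE, limma adjusted p = 0.11) in Combo cells and -0.47 ± 0.22 (SE, limma adjusted p = 0.19) in CPI203 cells, with OCI-LY3 and OCI-LY10 below Control and OCI-HBL1 above it in both. Leaving out OCI-HBL1, the line that went the other way, gave a Combo difference of -0.81 (limma adjusted p = 0.028). The line left out is the one that differed, so this fit lends no support to a fall over the lines. With arrays scaled to their poly-A spike-ins, RNAs added to each sample before labelling, the Combo difference was -0.97 (limma adjusted p = 0.0081). A second probe set of CD22, with a correlation of 0.926 to the first over the 12 arrays, gave -0.77 ± 0.20 in CPI203 cells and passed the test in a fit of every probe set (limma adjusted p = 0.036), so the probe sets differ in their call.

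MS4A1 encodes CD20, the target of rituximab. Its level was 12.23 (OCI-LY3), 12.01 (OCI-HBL1) and 11.76 (OCI-LY10) in Combo cells, and 12.23, 11.67 and 11.66 in CPI203 cells. IRAKi cells of the same lines had 12.85, 12.29 and 12.63, and Control cells 12.86, 12.43 and 12.50. Each Combo and CPI203 array lay below each Control array, whereas IRAKi and Control arrays overlapped. MS4A1 averaged 11.85 ± 0.32 in CPI203 cells, against 12.60 ± 0.23 in Control cells (SD, n = 3 each). The change was -0.60 ± 0.12 (SE, limma adjusted p = 0.0055) with Combo, 1.51-fold lower, and -0.75 ± 0.12 (SE, limma adjusted p = 0.0068) with CPI203, 1.68-fold lower.

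With IRAKi alone MS4A1 differed from Control by -0.011 ± 0.12, with a 95% interval of -0.29 to 0.27. Against IRAKi cells, Combo cells were lower, with a change of -0.59 ± 0.12 (SE, limma adjusted p = 0.011). The other 2 probe sets of MS4A1 also fell, with changes of -0.83 and -0.66 in Combo cells (limma adjusted p = 0.014 and 0.0091) and -1.03 and -0.76 in CPI203 cells (both 0.015). With 2 lines the calls were less firm. Without OCI-LY3 the limma adjusted p was 0.074 for Combo and 0.083 for CPI203, without OCI-LY10 it was 0.06 and 0.073, and the Combo call against IRAKi had 0.12 without OCI-LY3, 0.14 without OCI-LY10 and 0.051 without the OCI-LY10 IRAKi array.

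CD37 is a tetraspanin, a protein that organises others in the membrane, and a target of antibodies and conjugates in lymphoma. Its levels for the lines OCI-LY3, OCI-HBL1 and OCI-LY10 were 9.71, 10.11 and 9.97 in Combo cells, 10.08, 9.89 and 9.51 in CPI203 cells, 10.18, 10.08 and 9.85 in IRAKi cells and 10.25, 9.75 and 9.96 in Control cells. Lines and treatments overlapped throughout. The difference from Control was -0.057 (95% interval -0.45 to 0.33) in Combo cells, -0.16 (-0.55 to 0.23) in CPI203 cells and 0.053 (-0.34 to 0.44) in IRAKi cells. These intervals exclude a change of 2-fold but not smaller ones. CD37 has 4 probe sets, and the others had correlations of 0.851, 0.348 and 0.09 to the chosen one over the 12 arrays. None of them was called against Control. The likeness of CD37 to other genes given below rests on the chosen set.

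CD24 is a heavily glycosylated GPI-anchored protein and a ligand of Siglec-10. In Combo cells its level was 7.29 (OCI-LY3), 5.01 (OCI-HBL1) and 8.88 (OCI-LY10). CPI203 cells of the same lines had 8.68, 6.27 and 10.23, IRAKi cells 6.29, 4.73 and 8.25, and Control cells 7.57, 6.35 and 9.99. The order of the lines was the same under each treatment, and within each line IRAKi was lowest with Combo next, while the groups overlapped between lines. CD24 fell by 1.55 (SE 0.21, limma adjusted p = 0.035) in IRAKi against Control cells, 2.93-fold lower, and the line values ran from -1.74 to -1.28. In Combo against Control cells it fell by 0.91 (SE 0.21, limma adjusted p = 0.0092), 1.88-fold lower, and in OCI-LY3 the difference was only -0.28.

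Combo against CPI203 compares cells with and without the IRAK inhibitor on top of the same BET inhibitor, and here CD24 fell by 1.34 (SE 0.21, limma adjusted p = 0.013). The differences were -1.39 (OCI-LY3), -1.26 (OCI-HBL1) and -1.35 (OCI-LY10). CD24 was the 1 gene of the 8 called in this comparison, where 1.96% of all genes rose and 2.71% fell. CPI203 alone differed from Control by 0.42 ± 0.21 (SE, limma adjusted p = 0.23), and Combo from IRAKi by 0.64 ± 0.21 (SE, limma adjusted p = 0.066), and Combo lay between the single agents in each line. The interaction was 0.21, with a 95% interval of -0.46 to 0.89.

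The CD24 calls depended on the lines present and on how the line entered the model. The IRAKi call was lost without OCI-LY3, OCI-HBL1 or OCI-LY10 (limma adjusted p = 0.15, 0.19 and 0.38) and without the OCI-LY10 IRAKi array (0.14), and the call of Combo against CPI203 likewise without each line (0.12, 0.074 and 0.15), while the change without a line stayed between -1.68 and -1.46 for IRAKi. The call of Combo against Control was lost without OCI-HBL1 (0.074) and OCI-LY10 (0.11). With the cell line as a random block the adjusted p was 0.17 for IRAKi, 0.15 for Combo and 0.12 for Combo against CPI203, and with only the 2 groups compared it was 0.15 for IRAKi and 0.057 for Combo. CD24 has 1 probe set, of a kind whose probes are shared between transcripts, so no second probe set checks it.

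CD52 is a very short GPI-anchored peptide that carries a large glycan, and it is the target of alemtuzumab. Its level in Combo cells was 4.96 (OCI-LY3), 10.51 (OCI-HBL1) and 9.25 (OCI-LY10). In the same lines CPI203 cells had 4.54, 10.17 and 9.04, IRAKi cells 4.42, 10.02 and 8.88, and Control cells 4.57, 10.09 and 8.75. The Combo array was the highest of the 4 in every line, and OCI-LY3 stood close to the filter level under all treatments. CD52 rose by 0.44 ± 0.10 (SE, limma adjusted p = 0.01) in Combo against Control cells, 1.35-fold, with line values of 0.39, 0.42 and 0.50. It also rose against IRAKi, by 0.47 ± 0.10 (SE, limma adjusted p = 0.014), while the difference from CPI203 was 0.32 ± 0.10 (SE, limma adjusted p = 0.11).

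The rise of CD52 depended on how arrays were scaled, and its call on all lines being present. Poly-A spike-ins read higher than on Control arrays by 0.48 ± 0.27 in Combo, 0.30 ± 0.17 in CPI203 and 0.22 ± 0.03 in IRAKi cells (SD, n = 3 lines each). Scaled to them, the median of all genes in Combo against Control cells moved to -0.48 and CD52 to -0.04 (limma adjusted p = 0.87). On the mean of the 3 lines, the rise of CD52 was thus seen relative to the other genes but not under this scaling. Single lines were not tested. The same scaling took MS4A1 to -1.07, CD24 to -1.39 and CD72 to -2.75 in Combo cells, all still called, and CD52 against IRAKi to 0.21 (limma adjusted p = 0.5). Without OCI-LY3, OCI-HBL1 or OCI-LY10 the change against Control was 0.46, 0.45 and 0.40, about as large as with all lines, but the limma adjusted p was 0.079, 0.07 and 0.089 against Control and 0.14, 0.094 and 0.077 against IRAKi. The chosen probe set of CD52 is of the same kind as that of CD24, with probes shared between transcripts. The second probe set of CD52 gave 0.39 ± 0.16 in Combo against Control cells and did not pass the test (limma adjusted p = 0.1). Against IRAKi it gave 0.49 ± 0.16 and did not pass either (limma adjusted p = 0.065).

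CD38 is the target of daratumumab and is high on plasma cells. Its level for the lines OCI-LY3, OCI-HBL1 and OCI-LY10 was 7.71, 7.56 and 4.68 in Combo cells, 8.19, 7.27 and 4.76 in CPI203 cells, 7.27, 6.83 and 3.68 in IRAKi cells and 7.10, 6.76 and 4.96 in Control cells. OCI-LY10 was lowest under every treatment, and its IRAKi array was below the filter level. In OCI-LY3 and OCI-HBL1 the Combo and CPI203 arrays were above Control, and in OCI-LY10 they were slightly below it. The difference from Control was 0.38 ± 0.26 (SE, limma adjusted p = 0.31) in Combo cells, 0.47 ± 0.26 (SE, limma adjusted p = 0.28) in CPI203 cells and -0.35 ± 0.26 (SE, limma adjusted p = 0.58) in IRAKi cells. Combo lay 0.73 ± 0.26 above IRAKi (SE, limma adjusted p = 0.083), in all 3 lines.

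CR2 binds complement fragments on antigen and so helps a B cell respond to it. Its level for the lines OCI-LY3, OCI-HBL1 and OCI-LY10 was 5.47, 5.07 and 6.23 in Combo cells, 5.75, 4.09 and 6.08 in CPI203 cells, 6.43, 4.19 and 6.35 in IRAKi cells and 6.45, 4.34 and 7.25 in Control cells. OCI-HBL1 stood close to the filter level in all but its Combo array, which was its highest. The difference from Control was -0.42 ± 0.32 (SE, limma adjusted p = 0.37) in Combo cells and -0.70 ± 0.32 (SE, limma adjusted p = 0.19) in CPI203 cells, with CPI203 lower in all 3 lines. Combo minus Control was 0.73 in OCI-HBL1 but -0.98 in OCI-LY3 and -1.01 in OCI-LY10. Leaving out OCI-HBL1, the line that went the other way, gave a Combo difference of -0.99 (limma adjusted p = 0.026), which lends no support to a fall over the lines. Under scaling to the poly-A spike-ins the Combo difference was -0.90 (limma adjusted p = 0.039). The second probe set of CR2 averaged 4.20, close to the filter level. It gave -0.36 ± 0.15 in Combo cells and -0.21 ± 0.15 in CPI203 cells (SE), and neither passed the test (limma adjusted p = 0.099 and 0.41).

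**Figure D2:**
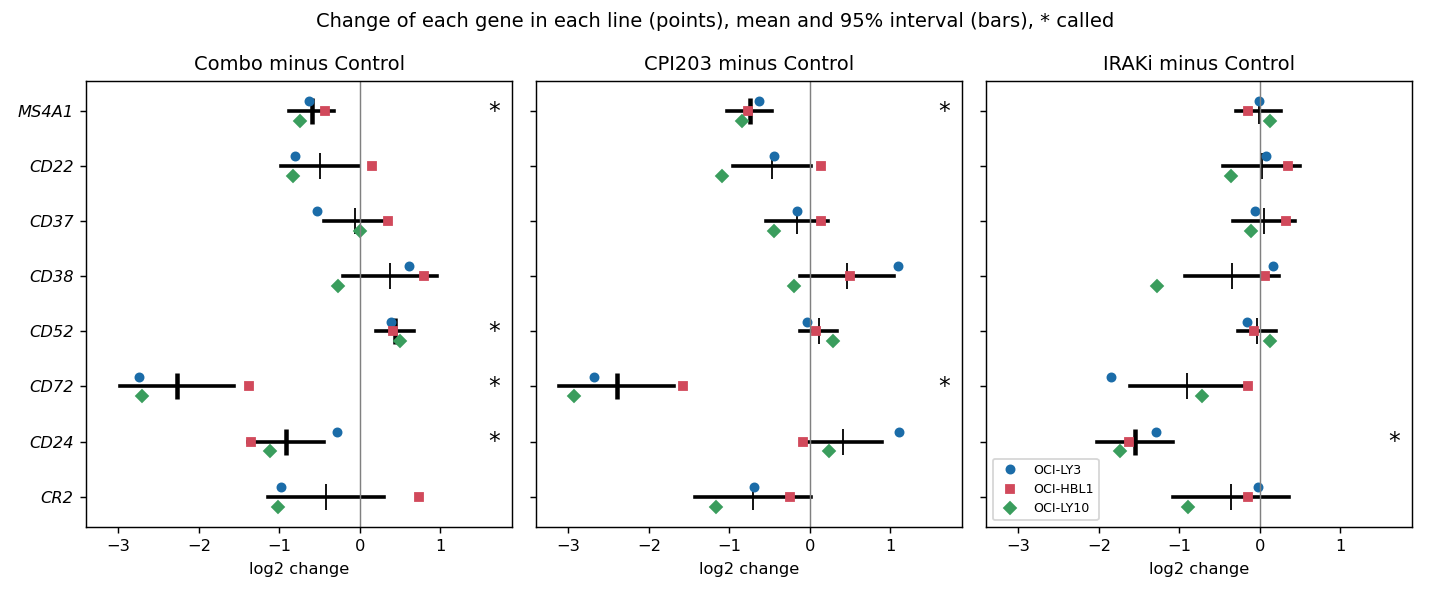
Log2 change of each antigen gene against Control in Combo, CPI203 and IRAKi cells, with 1 point a cell line, a tick at the mean and a bar for the 95% interval of the limma fit; asterisks mark called changes. CD72 lies near -2.3 with Combo and -2.4 with CPI203, CD24 at -1.55 with IRAKi, and CR2 and CD22 have OCI-HBL1 on the other side of 0 from the other lines with Combo.

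Over the 8 genes the median change against Control was -0.46 in Combo, -0.31 in CPI203 and -0.19 in IRAKi cells, against medians of all genes of -0.0031, 0.0081 and -0.00074. These comparisons use the same Control arrays. Combo and IRAKi cells differ in the BET inhibitor and in their labelled times, 24 h against 6 h, which cannot be told apart. In this comparison 1 of the 8 genes rose (CD52) and 2 fell (MS4A1 and CD72), where 8.21% of all genes rose and 10.5% fell. For the interaction 0 of the 8 genes were called by limma, where 0.00762% of all genes were. In Combo against Control cells 3 of the 8 were lower in all 3 lines, as were 27.8% of all genes.

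The line took a larger share of the variance than the treatment for 7 of the 8 genes. Of the variance over the 12 arrays, the line took 99.4% for CD52, 91.6% for CD22, 91% for CD38, 81.3% for CR2, 78.6% for CD24 and 64.2% for CD72. Treatment took the larger share for MS4A1, at 70% against 24.6% for the line. For CD37 the line took 22%, the treatment less, and 63.5% was left over. The treatment shares were 32.2% for CD72, 19.9% for CD24 and 0.596% for CD52. With the line left out of the model, 0 of the 8 genes were called in any of the 5 comparisons. Calls over all genes also dropped without the line, as given below for CPI203 and Combo against Control cells. The loss of calls there is thus not particular to the 8 genes.

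OCI-HBL1 had the highest CD52 (10.02 to 10.51 over its 4 arrays), followed by OCI-LY10 (8.75 to 9.25) and OCI-LY3 (4.42 to 4.96), with no overlap. OCI-LY3 had the highest CD22 (8.66 to 9.53), then OCI-LY10 (7.46 to 8.55) and OCI-HBL1 (6.37 to 6.72), also with no overlap. For CD38, OCI-LY3 (7.10 to 8.19) and OCI-HBL1 (6.76 to 7.56) overlapped and OCI-LY10 (3.68 to 4.96) lay below both. CD72 overlapped between OCI-LY10 (6.91 to 9.85) and OCI-HBL1 (7.01 to 8.59), and OCI-LY3 (4.16 to 6.90) lay below both. CD24 was highest in OCI-LY10 (8.25 to 10.23), then OCI-LY3 (6.29 to 8.68) and OCI-HBL1 (4.73 to 6.35), and neighbours in that order overlapped across treatments. CR2 overlapped between OCI-LY10 (6.08 to 7.25) and OCI-LY3 (5.47 to 6.45), with OCI-HBL1 (4.09 to 5.07) below both. MS4A1 and CD37 overlapped in all 3 lines. Each line was thus low in a different antigen, with CD52 and CD72 lowest in OCI-LY3, CD22, CD24 and CR2 lowest in OCI-HBL1, and CD38 lowest in OCI-LY10. Each line is a single line, and these levels are a description.

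Likeness of the treatment patterns was measured as Pearson's r over the 12 arrays, on each array's deviation from the mean of its line. The arrays share 3 lines and 4 treatments, so the values describe and are not tested. MS4A1 and CD72 were most alike among the 28 pairs (0.899), followed by CD22 with CD72 (0.785) and with MS4A1 (0.776). CD22 was also alike to CD37 (0.762) and CR2 (0.754). CD52 ran opposite to CD22 (-0.692), CD72 (-0.624) and MS4A1 (-0.623), and CD38 opposite to MS4A1 (-0.671). CD24 was most alike to CD38 (0.542). Of the 28 pairs 13 were positive and 15 negative.

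**Figure D3:**
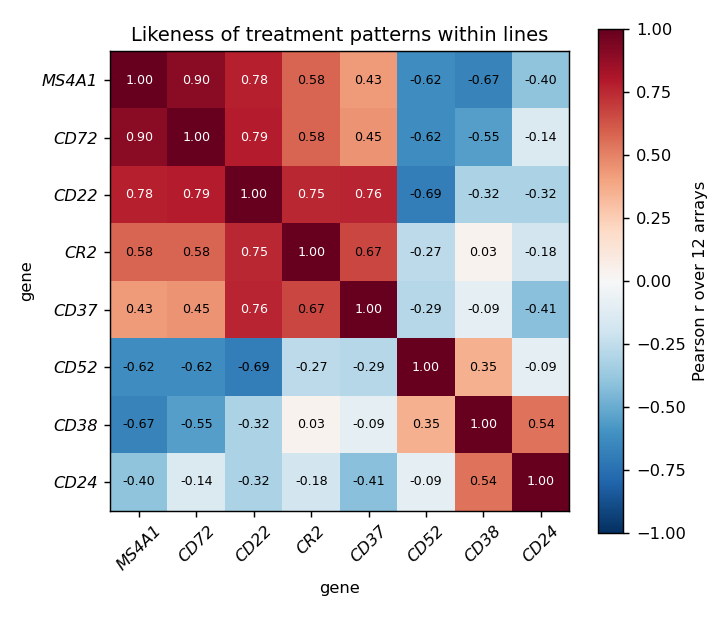
Pearson's r between pairs of the 8 antigen genes over the 12 arrays, each array taken as its deviation from the mean of its cell line; red is positive and blue negative. MS4A1, CD72, CD22, CR2 and CD37 form a block of positive values, 0.43 to 0.90, with CD52 negative against each of them.

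Among all genes tested, the 3 most alike to CD72 were TRBC1 (0.978), SCMH1 (0.972) and CAPN2 (0.968), and those most alike to MS4A1 were IPO8 (0.988), CEP41 (0.98) and SREK1IP1 (0.977). CD52 was most like NRBF2 (0.975), ATP5MK (0.973) and B3GNT2 (0.966). CD24 was most like EEF1B2 (0.931), BRI3BP (0.926) and PLIN2 (0.925), and CD22 most like QTRT1 (0.958), FAAP24 (0.945) and TNS3 (0.944). The nearest genes were HSPBP1 (0.925), PAF1 (0.923) and SNRPA (0.89) for CD37, LYSET (0.945), CLEC7A (0.941) and SOX13 (0.939) for CD38, and PIGN (0.931), GPM6A (0.914) and ZBTB46 (0.909) for CR2. None of these genes is one of the 8.

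Other genes of the same pathways were counted from lists written from general knowledge. The lists were chosen with earlier results of these data known, so their counts are a description. Some genes, such as CD79B and CD81, stand in more than 1 list. The shares over all genes were 15.4% rising and 16.7% falling with Combo, 6.92% and 6.21% with CPI203, and 0.114% and 0.0534% with IRAKi. Of 23 other surface antigens used as therapy targets and tested, 9 fell and 0 rose in Combo against Control cells, with a median change of -0.38, and 6 fell in CPI203 cells and 0 in IRAKi cells. With Combo the change was -3.45 for TNFRSF17, which encodes the plasma cell receptor BCMA (limma adjusted p = 8.8e-05), -1.86 for the adhesion molecule ICAM1 (0.00052) and -1.50 for the costimulatory ligand CD80 (0.00065). TNFRSF17 was below the filter level in Combo cells of OCI-LY3 (3.91) and OCI-LY10 (3.61), which limits the differences that can be read there. Of 17 genes listed as other inhibitory receptors and their phosphatases, 8 fell and 0 rose with Combo, with a median of -0.83, and 3 fell with CPI203 and 0 with IRAKi. The falls with Combo included FCGR2B, the inhibitory Fc receptor, at -1.56, and PTPN6, which encodes SHP-1, at -1.53. CD200, which the list holds although it is a ligand of an inhibitory receptor, was at -1.35. PTPN6 was not called without OCI-LY3 (limma adjusted p = 0.064) or OCI-HBL1 (0.052), nor CD200 without OCI-LY3 (0.3) or OCI-LY10 (0.19). In OCI-HBL1 CD200 was below the filter level on every array (3.17 to 3.73).

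The counts that follow are for Combo against Control cells, where 16.7% of all genes fell and 15.4% rose. Of 19 genes of B cell receptor and coreceptor signalling, 7 fell and 2 rose with Combo. The falls included the kinase gene BLK (-1.62), PIK3CD, a PI3 kinase subunit (-1.58), and CD79B, a signal chain of the receptor (-1.39), while the kinase gene FYN rose by 1.55 and CD81 by 0.62. Of 15 other tetraspanins, the family of CD37, CD81, TSPAN5 and TSPAN13 rose (3 genes) and TSPAN33 and CD151 fell (2 genes). Of these, CD151 was called without each line in turn. CD81 lost its call without OCI-HBL1 or OCI-LY10, TSPAN5 without OCI-LY3 (0.34 against 0.62 with it) or OCI-LY10, TSPAN13 without OCI-LY3 or OCI-HBL1, and TSPAN33 without OCI-LY3 or OCI-LY10. Neither of the 2 other MS4A genes tested was called. Of 24 B cell transcription factors 10 fell and 2 rose, with a median of -0.55, and the largest falls were those of BCL11A (-2.38), IKZF1 (-2.29) and SPIB (-2.13), while FOXO1 (0.47) and BCOR (0.45) rose. The SPIB change was -4.50 in OCI-LY3 against -1.23 in OCI-HBL1 and -0.65 in OCI-LY10. It was -0.94 without OCI-LY3 (limma adjusted p = 0.031) and not called without OCI-HBL1 (0.066). FOXO1 and BCOR lost their calls without OCI-LY3 (0.12 and 0.22) or OCI-LY10 (0.13 and 0.34, with BCOR at 0.26).

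**Figure D4:**
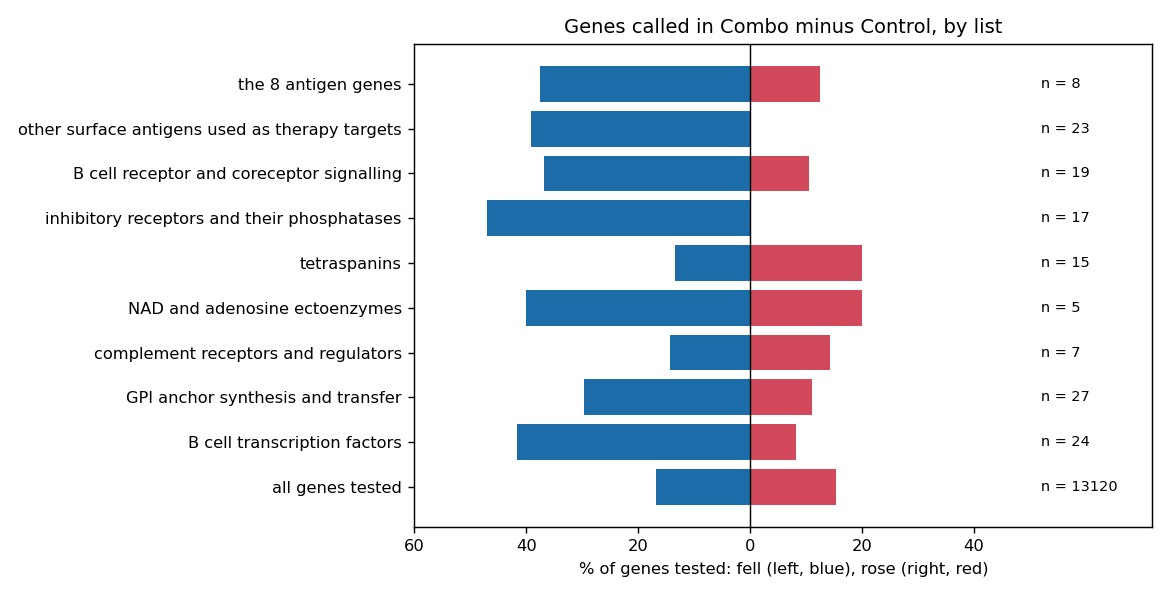
Percent of the genes tested in each list that fell (left, blue) or rose (right, red) in Combo against Control cells at an adjusted p below 0.05, with the number tested at the right and all 13120 genes at the bottom. The antigen genes, the other antigens, the receptor signalling genes, the inhibitory receptors and the transcription factors each had more called falls than rises, and tetraspanins had 3 rises and 2 falls.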

How the data were processed

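RNA from 3 cell lines under 4 treatments was prepared with Trizol, and 150 ng of total RNA per sample was labelled as biotin cRNA for 12 arrays, per the labels' protocols. The deposited log2 values were made by the authors with RMA in Affymetrix Expression Console 1.1, per the submitters' processing notes; RMA corrects background, quantile-normalizes arrays and so removes differences in total signal. The sources used here do not give the probe library or genome build. Symbols came from the array annotation, and 99.821% matched the reference gene table. Probe sets of several genes (1327) and control probe sets were not used here, except the controls that are named.

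For each gene the probe set highest on average stood for it, and the gene was tested when above the 40th percentile of all values (4.20) in at least 3 arrays. All 12 arrays were fitted with limma 3.58.1 in R 4.3.3 (with data.table, version 1.17.8), with treatment and cell line as terms (6 residual degrees of freedom, prior 3.66), and the two-sided p-values received a Benjamini-Hochberg adjustment over 13120 genes. The number of arrays limits the precision. Cell lines pair the arrays, as the labels give, and arrays of a line deviated together (correlations 0.819 to 0.907). The test was checked on simulated data.

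The members, lists and tests were chosen with earlier results of these data known. All 8 members are described; from each list, up to 3 called genes with the largest change in each direction in Combo against Control are named, and the 3 most alike genes of each member by r. The alternatives tried were other summaries of probe sets, filters, scalings and variance models, cell line as a random block or left out, only the groups compared, and each line or the OCI-LY10 IRAKi array left out.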

Additional observations from a re-analysis of the deposited data

How the results depend on the processing

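Over 712 alternative values of the 8 genes' changes, 616 kept their direction and their side of the threshold, 48 kept the direction but were no longer called, 9 became called and 39 changed direction. Of 165 alternatives for called changes, 116 kept the call and 1 changed direction. The falls of CD72 in Combo and CPI203 cells each held in 14 of 15 alternatives and were lost only without a replicate block. Among these, the average of its probe sets is no separate check, since the second set of CD72 was flat near background. With no replicate block, 0 members were called in all 5 comparisons. With the cell line as a random replicate block, 0 were called for IRAKi, 2 for Combo, 0 for Combo against CPI203 and 1 for Combo against IRAKi. With only the 2 groups compared, 0 were called for IRAKi, 2 for Combo and 1 for Combo against IRAKi. Without the OCI-LY10 IRAKi array, 0 were called for IRAKi and 1 for Combo against IRAKi. Median centring gave 5 for Combo against IRAKi, CD24 and CD38 being added. With each line left out in turn, 1 to 2 members were called for CPI203, 0 to 0 for IRAKi, 1 to 4 for Combo, 0 to 0 for Combo against CPI203 and 0 to 2 for Combo against IRAKi. Over all genes, leaving out a line took the calls to between 216 and 720 for CPI203 (1723 with all lines), and the numbers of calls without the block were 4 for CPI203 and 465 for Combo (4214 with it). In these fits the loss of calls is thus not particular to the 8 genes. For the other settings the calls over all genes are not given here, so those counts do not set the 8 genes apart.

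The values that changed direction were, except CD52 in Combo, of changes that were not called, and the cause was not tested. Under scaling to poly-A controls, which moved the median of all genes by -0.295 for CPI203, -0.221 for IRAKi and -0.48 for Combo, CD52 was -0.1914 for CPI203 and -0.04023 for Combo, CD22 -0.1964 and CD37 -0.1668 for IRAKi, CD38 -0.09673 for Combo, and MS4A1 -0.0254, CD37 -0.07351 and CD72 -0.04608 for Combo against CPI203. With cyclic loess, MS4A1 was 0.01348 and CD22 -0.01386 for IRAKi, and CD22 0.02277 for Combo against CPI203 and 0.03663 for the interaction. With the probe sets of each gene averaged, CD22 was -0.1039 for IRAKi, 0.105 for Combo against CPI203 and 0.2089 for the interaction, and CD37 0.0351 for Combo and 0.0249 for Combo against IRAKi. With median centring, CD37 was 0.01737 for Combo, CD22 0.04863 for Combo against CPI203 and 0.04813 for the interaction, and CR2 0.03229 for Combo against IRAKi. With a line left out, IRAKi changes spanned -0.0781 to 0.05812 for MS4A1, -0.1406 to 0.2128 for CD22, -0.0847 to 0.1336 for CD37, -0.6049 to 0.1185 for CD38 and -0.1142 to 0.02782 for CD52, and CD37 spanned -0.2631 to 0.1813 for Combo. For Combo against CPI203 the spans were -0.175 to 0.137 for CD22, -0.07666 to 0.3361 for CD37, -0.2761 to 0.1109 for CD38 and -0.06138 to 0.5677 for CR2. For Combo against IRAKi they were -0.2221 to 0.0705 for CD37 and -0.5392 to 0.3823 for CR2. For the interaction they were -0.00303 to 0.2485 for MS4A1, -0.3878 to 0.1386 for CD22, -0.2102 to 0.2254 for CD37 and -0.2102 to 0.7158 for CD38. Levels near 4.20 (CD52 and CD72 in OCI-LY3, CD38 in OCI-LY10, CR2 in OCI-HBL1) are close to background, which limits the differences that can be read there.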

Other observations

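In Combo against Control cells 15.4% of all genes rose and 16.7% fell, and in CPI203 cells 6.92% rose and 6.21% fell. Genes that make or transfer the GPI anchor, by which CD24 and CD52 are held, were also measured. Of 27 such genes tested, 8 fell and 3 rose in Combo against Control cells, with a median change of -0.094, and 4 fell and 1 rose in CPI203 cells and 0 of either in IRAKi cells. The largest falls were those of PIGB (-1.41), PIGC (-1.26) and PIGO (-1.20), genes of the anchor's assembly, while PIGH (1.29), PGAP1 (0.75) and PIGX (0.46) rose. PGAP1 lost its call without OCI-LY3 (limma adjusted p = 0.21) or OCI-LY10 (0.15), and PIGX without OCI-LY3 (0.27) or OCI-HBL1 (0.15).

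Of 5 ectoenzyme-list genes tested, 2 fell and 1 rose with Combo, 1 fell and 1 rose with CPI203, and 1 fell with IRAKi, where 0.0534% of all genes fell. ENTPD1 (CD39), which breaks down extracellular ATP, changed by -1.45 with Combo, -1.42 with CPI203 (limma adjusted p = 0.0013) and -1.22 with IRAKi (0.029). For ENTPD1 Combo differed from CPI203 by -0.037 and from IRAKi by -0.23, and neither was called. ADA, which deaminates adenosine, fell by 0.77 with Combo. The gene that rose was SIRT1, a NAD-dependent nuclear deacetylase, by 1.09. Of 7 complement receptors and regulators, CD46, a regulator that protects cells from complement, rose by 0.37, and ITGAX, an integrin chain that binds complement fragments, fell by 1.07. CD46 was not called without any 1 of the lines (limma adjusted p = 0.33, 0.14 and 0.077 without OCI-LY3, OCI-HBL1 and OCI-LY10), and without OCI-LY3 it was 0.23. ITGAX changed by -1.56 in OCI-LY3 and -1.90 in OCI-LY10 but by 0.26 in OCI-HBL1. On every OCI-HBL1 array ITGAX was below the filter level of 4.20 (3.52 to 3.99), so the 0.26 lies within background levels. The change of ITGAX was -1.73 without OCI-HBL1 (limma adjusted p = 0.002), and not called without OCI-LY3 (0.29) or OCI-LY10 (0.32, change -0.65). ADA lost its call without OCI-LY10 (0.059).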
